A study of Mus musculus with 20 samples.

Results

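The subunits of the GID/CTLH E3 ubiquitin ligase were followed in aged brain of acetylation-mimic TDP-43 mice. The 10 genes were Gid4, Gid8, Maea, Rmnd5a, Rmnd5b, Ranbp9, Ranbp10, Wdr26, Armc8 and Mkln1, taken by symbol from the 24528 genes of the expression table, and all 10 were found in it and kept in every fit. The set was selected on the measured Gid4 values, which were lower in mutant brain in both regions, so the difference of Gid4 between genotypes is given as a description without a test. The question put to the other 9 subunits was whether their transcripts went with Gid4.

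Total RNA, depleted of ribosomal RNA, had been sequenced from dissected brain tissue of mice aged 18 months. The mutant mice, TDP-43 KQ/KQ, were homozygous for a lysine-to-glutamine substitution in an RNA-recognition motif of the endogenous Tardbp gene, made by CRISPR/Cas9 editing in C57BL/6J mice, and the control mice, TDP-43 wt, carried the unmodified gene. The substitution is in every tissue and at every age, so the model does not separate neurons from other cells. The neocortex had 6 TDP-43 KQ/KQ libraries (3 female, 3 male) and 5 TDP-43 wt libraries (3 female, 2 male), and the hippocampus had 5 TDP-43 KQ/KQ libraries (3 female, 2 male) and 4 TDP-43 wt libraries (3 female, 1 male). The labels number the libraries of a group as separate replicates and give their litters. The 6 females have the same numbers and litters in both regions and may be the same mice.

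GID/CTLH is a large ubiquitin ligase built of many subunits and conserved from yeast to mammals. A RING heterodimer carries the catalytic activity, a scaffold holds it, and substrate receptors bring proteins to it. In budding yeast the complex marks gluconeogenic enzymes for degradation when glucose returns, and Gid4 is the receptor that binds an N-terminal proline on them. In mammals GID4 keeps that binding pocket, and several other proteins have been named as substrates.

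TDP-43 binds GU-rich RNA, so the stretches of alternating G and U in the subunits' transcripts are shown here as the sequence context of the genes. In the longest protein-coding transcript of each gene (GENCODE vM21, GRCm38), 3 of the 10 members held an uninterrupted alternating G and T stretch of 20 bases or more, against 3.88% of 21877 genes. In Gid4 the stretch was 40 bases long, lay in the 5′ UTR at transcript bases 121 to 160 in exon 1 of 6, and mapped to chr11:60417382-60417421 on the plus strand. In Wdr26 it was 51 bases long, in the 3′ UTR in exon 14 of 14, at chr1:181173775-181173825 on the minus strand. In Armc8 it was 48 bases long, in the 3′ UTR in exon 22 of 22, at chr9:99480380-99480427 on the minus strand. Among transcripts between 75% and 125% of the same length, a stretch at least as long was found in 2.15% for Gid4, 1.24% for Wdr26 and 1.23% for Armc8. Rmnd5a had the next longest, of 10 bases, in the 3′ UTR in exon 9 of 9 at chr6:71392200-71392209 on the minus strand, where 20.7% of transcripts of like length held 1 as long. The remaining 6 members reached 6 to 8 bases. Only this spliced transcript of each gene was scanned, and introns were not. The opening of each stretch is printed below as 30 bases of the transcript, 5′ to 3′, with the alternating bases in capitals.
Gid4: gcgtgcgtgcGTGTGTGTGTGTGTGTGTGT
Wdr26: agagagtgtaTGTGTGTGTGTGTGTGTGTG
Armc8: gcaagaatgaTGTGTGTGTGTGTGTGTGTG
Rmnd5a: catcaaacatTGTGTGTGTGgaagggaaga
These letters describe the reference transcripts, and no binding was measured at them.

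All values below are on a log2-like scale. They are the authors' variance-stabilized expression after removal of sex and litter effects, and each gene was centred so that its mutant neocortex libraries average 0. Differences between libraries can be read, but levels of different genes and depth cannot. Neocortex TDP-43 wt male 1 is the only library of litter 2, so the removal of litter left it at its group mean. It is counted in the numbers, SDs and separations below but adds no information, and its omission changes no fit. TDP-43 KQ/KQ female 2 is the only library of litter 1 in each region, so its deviations in the 2 regions mirror each other (correlation -1). Its omission left the genotype fit of each region alone unchanged. The omission of hippocampus TDP-43 wt female 3 or TDP-43 KQ/KQ female 3 likewise left the hippocampus fit unchanged. The hippocampus fit thus rests on the females of litter 6 and the males of litter 5. The model of both regions does use these libraries. Tardbp, the edited gene, went with the labels: it was higher in TDP-43 KQ/KQ than in TDP-43 wt by 0.99 ± 0.069 (SE) in neocortex and 0.86 ± 0.13 in hippocampus, with no overlap between genotypes in either region (adjusted p = 0.00192 and 0.204 by limma, and 0.000117 and 0.00163 with both regions in 1 model). The neocortical Tardbp call was lost without TDP-43 wt male 2 (adjusted p = 0.0775 by limma) and without the filter on genes with identical values (adjusted p = 0.121). Within TDP-43 KQ/KQ, all 6 hippocampal marker genes were higher in hippocampus than in neocortex, and all 6 neocortical marker genes were lower. All of these passed the test, as did 35.4% of all genes. Within TDP-43 wt the directions were the same, and 5 of 6 hippocampal and 6 of 6 neocortical markers passed, where 28.2% of all genes did. In bulk tissue, fewer cells of a type and less RNA per cell cannot be told apart.

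Gid4, which encodes the substrate receptor, is on chromosome 11 (60417145 to 60445277, GRCm38.p6, plus strand). In the neocortex the 6 TDP-43 KQ/KQ libraries had a lowest value of -0.051, a median of -0.018 and a highest value of 0.092, against 0.50, 0.53, 0.49, 0.54 and 0.64 in the 5 TDP-43 wt libraries. In the hippocampus the TDP-43 KQ/KQ libraries were at 0.020, 0.017, 0.031, 0.020 and -0.10, against 0.52, 0.67, 0.69 and 0.62 in TDP-43 wt. Every mutant library was below every control library of its region, and the gap between the groups was several times the spread within them. Such a separation with the mutants lower was found for 4.29% of the 18329 neocortical genes and 5.35% of the 18310 hippocampal genes. The fitted difference of mutants minus controls was -0.54 ± 0.057 (SE; 95% interval -0.67 to -0.42) for neocortex and -0.62 ± 0.077 (95% interval -0.80 to -0.44) for hippocampus, which are ratios of 0.685 and 0.652 on this scale. Ordered from the lowest, the Gid4 difference stood at place 9 among neocortical and place 32 among hippocampal differences.

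**Figure D1:**
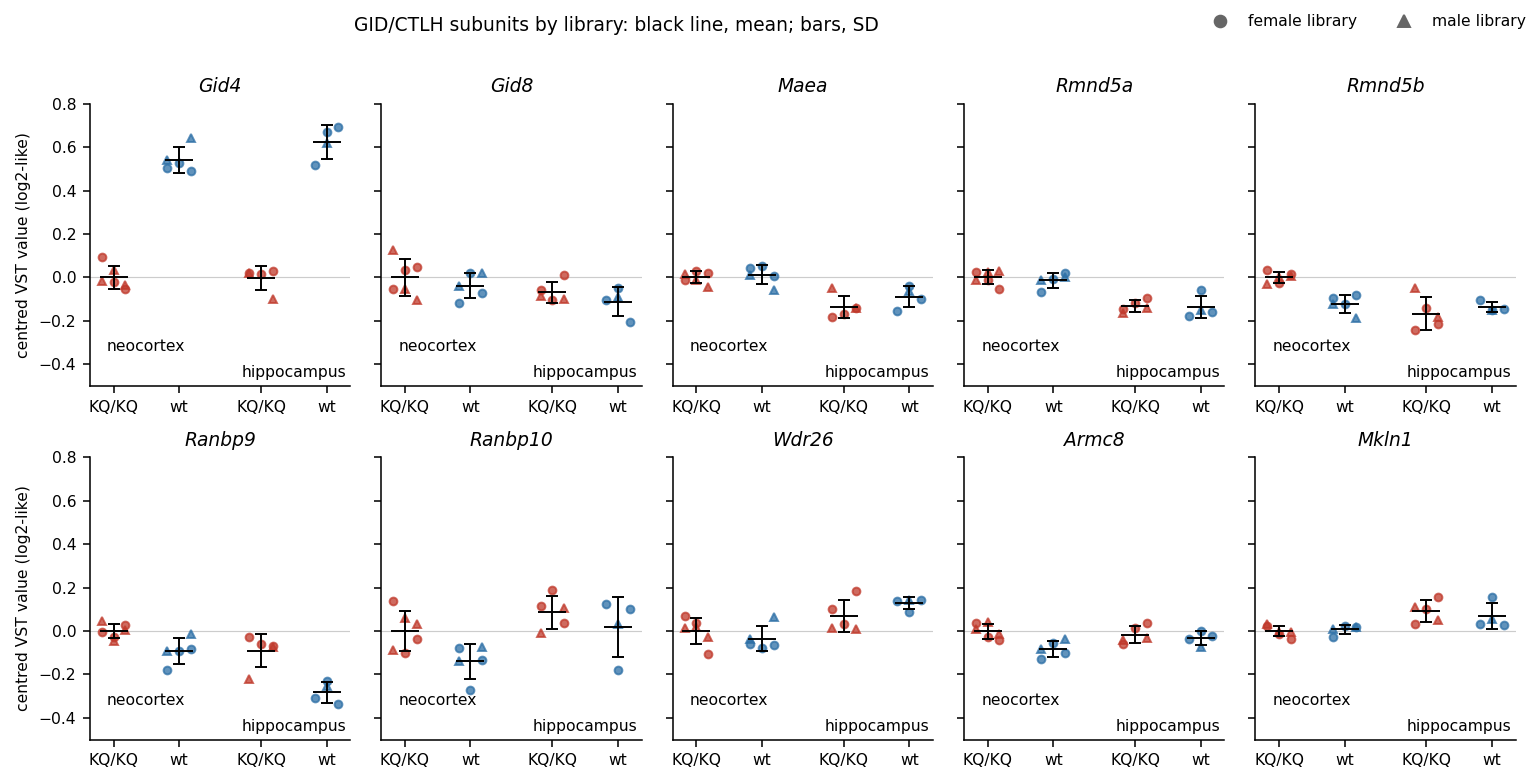
Centred VST values (log2-like, vertical axis) of the 10 subunits in each library, by region and genotype, with circles for females, triangles for males, a black line for the mean and bars for the SD. The TDP-43 KQ/KQ libraries of Gid4 lie between -0.10 and 0.092 and the TDP-43 wt libraries between 0.49 and 0.69, while the other 9 subunits stay between -0.34 and 0.19 in all libraries.

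A difference between genotypes within 1 sex and 1 litter is untouched by the removal of sex and litter effects, so it is also shown. In the hippocampus the fitted difference of a gene is the mean of its 2 such comparisons. They are therefore the same result there and no separate evidence. For Gid4 they come from the values it was chosen on and are a description. For Gid4 in females of litter 6 it was -0.42 in neocortex and -0.57 in hippocampus (1 TDP-43 KQ/KQ and 2 TDP-43 wt libraries each). In males of litter 5 it was -0.64 in neocortex and -0.66 in hippocampus (2 TDP-43 KQ/KQ and 1 TDP-43 wt library each). All 4 of these comparisons were lower in the mutants, as they were for 17% of 17863 genes.

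Set side by side, and without a test because Gid4 was chosen for being lower in both regions, the hippocampal difference of Gid4 minus the neocortical one was -0.088 ± 0.072 (SE; 95% interval -0.24 to 0.066). In the neocortex the difference in males minus that in females was -0.19 ± 0.12 (95% interval -0.47 to 0.086). Between the regions themselves, Gid4 in the hippocampus minus Gid4 in the neocortex was -0.0022 ± 0.047 in TDP-43 KQ/KQ (adjusted p = 0.976) and 0.086 ± 0.054 in TDP-43 wt (adjusted p = 0.261), so neither genotype showed a regional difference beyond its error.

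None of the other 9 subunits passed the test between genotypes. In the neocortex 0 of 9 had an adjusted p under 0.05 by limma, where 0.0382% of all genes did, and 1 of 9 had an unadjusted p under 0.05, against 13.7% of all genes. In the hippocampus 0 of 9 passed, where 0% of all genes did, and 0 of 9 had an unadjusted p under 0.05, against 12.1%. When 1 model held both regions, 0 of 9 passed in either (0.224% of all genes in the neocortex and 0.386% in the hippocampus), with 1 of 9 at an unadjusted p under 0.05 in each, against 14.4% and 14.8% of all genes. The median difference over the 9 was 0.026 in neocortex and -0.016 in hippocampus, beside medians of -0.0037 and -0.0047 over all genes.

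The intervals give the sizes of change that each fit leaves possible, for 1 gene at a time and not for the 9 jointly. Their differences ran from -0.0043 to 0.15 in the neocortex and from -0.072 to 0.17 in the hippocampus. The lowest edge of any 95% interval among the 9 was -0.12 in neocortex and -0.23 in hippocampus, above the Gid4 difference of -0.54 and -0.62 in each region. Gid4 was chosen for its low difference, so most genes lie above it. The comparison with Gid4 here is a description and no test. The mean over the 9 subunits lay between -0.018 and 0.028 in neocortex TDP-43 KQ/KQ libraries and between -0.079 and -0.030 in TDP-43 wt libraries, and between -0.056 and -0.010 against -0.077 and -0.052 in the hippocampus. Relative to this mean in the same library, Gid4 was 0 ± 0.039 (SD, n = 6, set by the centring) in TDP-43 KQ/KQ and 0.59 ± 0.047 (SD, n = 5) in TDP-43 wt neocortex, and 0.038 ± 0.048 (SD, n = 5) against 0.69 ± 0.081 (SD, n = 4) in the hippocampus. This gap, too, goes with the choice of Gid4.

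**Figure D2:**
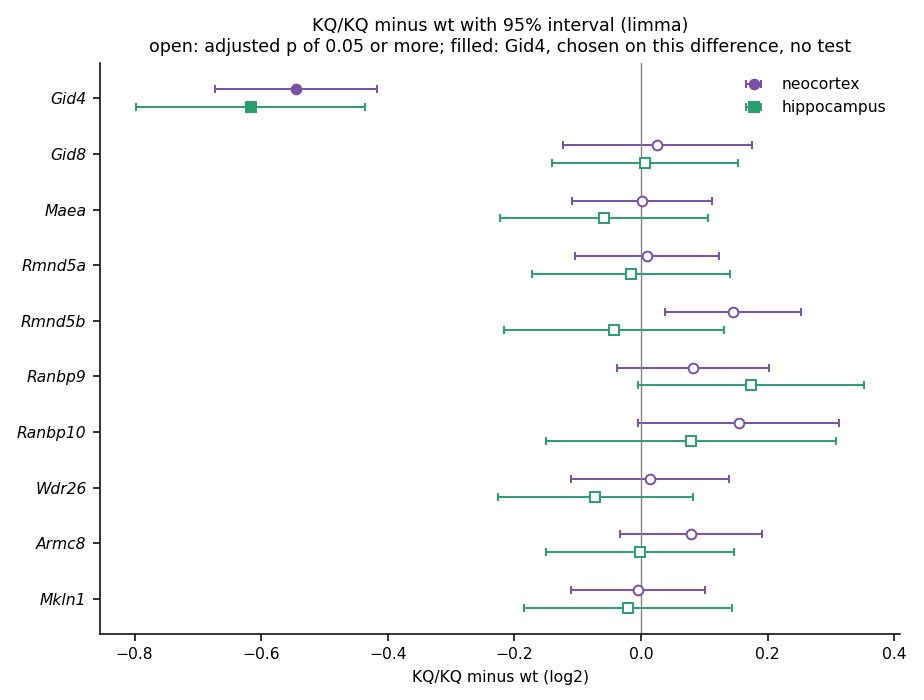
Fitted difference between genotypes (mutants minus controls, log2, horizontal axis) with its 95% interval for each subunit, circles for neocortex and squares for hippocampus. Gid4 stands at -0.54 and -0.62 with no test, and all 9 other subunits have open symbols, an adjusted p of 0.05 or more.

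The catalytic core is a RING heterodimer of MAEA with RMND5A or its paralogue RMND5B. Maea (chromosome 5) differed between genotypes by 0.0017 ± 0.049 (SE) in neocortex and -0.059 ± 0.070 in hippocampus, and Rmnd5a (chromosome 6) by 0.0099 ± 0.051 and -0.016 ± 0.067. Both genes had overlapping genotypes in both regions. Maea was lower in the mutants in 3 of the 4 comparisons within 1 sex and litter, and Rmnd5a in 2 of 4.

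Rmnd5b (chromosome 11, 51623673 to 51635896, GRCm38.p6, minus strand) was the subunit nearest to the threshold in the neocortex. Its neocortex TDP-43 KQ/KQ libraries had a lowest value of -0.032, a median of 0.0040 and a highest value of 0.033, against -0.096, -0.12, -0.081, -0.12 and -0.19 in TDP-43 wt. All 6 mutant libraries were above all 5 controls, a separation seen with the mutants higher in 4.22% of genes. In the hippocampus the values were -0.24, -0.14, -0.21, -0.051 and -0.18 in TDP-43 KQ/KQ, against -0.10, -0.15, -0.15 and -0.15 in TDP-43 wt, and the genotypes overlapped. The difference was 0.15 ± 0.048 (SE; 95% interval 0.038 to 0.25) in the neocortex and -0.042 ± 0.074 (95% interval -0.22 to 0.13) in the hippocampus, with adjusted p = 0.288 and 0.836 by limma. Within 1 sex and litter it was 0.14 and 0.19 in neocortex and -0.12 and 0.031 in hippocampus. The hippocampal minus the neocortical difference was -0.15 ± 0.060, the largest in size among the 9 and the only 1 with an unadjusted p under 0.05 (0.0241), where 5.83% of all genes have such a p, and it did not pass the adjustment (adjusted p = 0.829 by limma). In the fits of the neocortex alone with genotype alone, with sex without litter and with litter as a random effect, Rmnd5b passed with an adjusted p by limma between 0.0148 and 0.0194, and with the number within sex as a block in place of sex and litter it was 0.0466. In these settings 2745, 1939, 2423 and 1856 of all 18329 genes passed, in the same order.

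The scaffold is held by RANBP9 or its paralogue RANBP10 together with GID8, and ARMC8 links GID4 to it. Ranbp9 (chromosome 13, 43402673 to 43481283, GRCm38.p6, minus strand) had the largest hippocampal difference of the 9. Its hippocampal values were -0.026, -0.062, -0.070, -0.22 and -0.073 in TDP-43 KQ/KQ, against -0.31, -0.23, -0.34 and -0.25 in TDP-43 wt. All 5 mutant libraries were above all 4 controls, as in 4.1% of genes, although TDP-43 KQ/KQ male 1 at -0.22 lay next to the highest control at -0.23. In the neocortex the TDP-43 KQ/KQ libraries had a lowest value of -0.045, a median of 0.0010 and a highest value of 0.046, against -0.18, -0.092, -0.083, -0.092 and -0.015 in TDP-43 wt, and the genotypes overlapped. The difference was 0.083 ± 0.053 (SE) in the neocortex and 0.17 ± 0.076 (95% interval -0.0042 to 0.35) in the hippocampus, with adjusted p = 0.495 and 0.418 by limma. In the model of both regions the hippocampal difference was 0.19 ± 0.053 (95% interval 0.078 to 0.31) and its adjusted p 0.139, and the adjusted p was between 0.00502 and 0.00894 in that model where litter was left out or taken as a random effect.

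Ranbp10 (chromosome 8) was the only subunit other than Gid4 with the same sign in all 4 comparisons within 1 sex and litter. It was higher in the mutants by 0.31 in neocortex females of litter 6, 0.12 in neocortex males of litter 5, 0.14 in hippocampus females and 0.017 in hippocampus males, and 15.5% of genes were higher in all 4. Its spread was the widest of the members, with SDs of 0.093 in TDP-43 KQ/KQ and 0.081 in TDP-43 wt neocortex, and 0.076 against 0.14 in the hippocampus. The fitted difference was 0.15 ± 0.070 (SE; adjusted p = 0.374 by limma) in the neocortex and 0.079 ± 0.098 (adjusted p = 0.759) in the hippocampus.

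Gid8 (chromosome 2), the scaffold subunit also called TWA1, differed by 0.026 ± 0.067 (SE) in neocortex and 0.0057 ± 0.063 in hippocampus. Armc8 (chromosome 9, 99478385 to 99568907, GRCm38.p6, minus strand) differed by 0.079 ± 0.050 in neocortex and -0.0014 ± 0.064 in hippocampus. In the neocortex Armc8 spanned -0.043 to 0.043 in TDP-43 KQ/KQ, against -0.13 to -0.037 in TDP-43 wt, so the ranges overlapped at 1 library of each genotype, and in the hippocampus they overlapped as well.

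WDR26 and MKLN1 (muskelin) join copies of the core into larger assemblies, and WDR26 also takes part in binding substrates. Wdr26 (chromosome 1, 181173226 to 181220921, GRCm38.p6, minus strand) differed between genotypes by 0.014 ± 0.056 (SE) in neocortex and -0.072 ± 0.066 in hippocampus. Mkln1 (chromosome 6) differed by -0.0043 ± 0.047 and -0.020 ± 0.070. Both had overlapping genotypes in both regions, with an adjusted p of at least 0.671 by limma. The part of the long alternating G and T stretches printed above in the values of Gid4, Wdr26 and Armc8 was not tested.

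**Figure D3:**
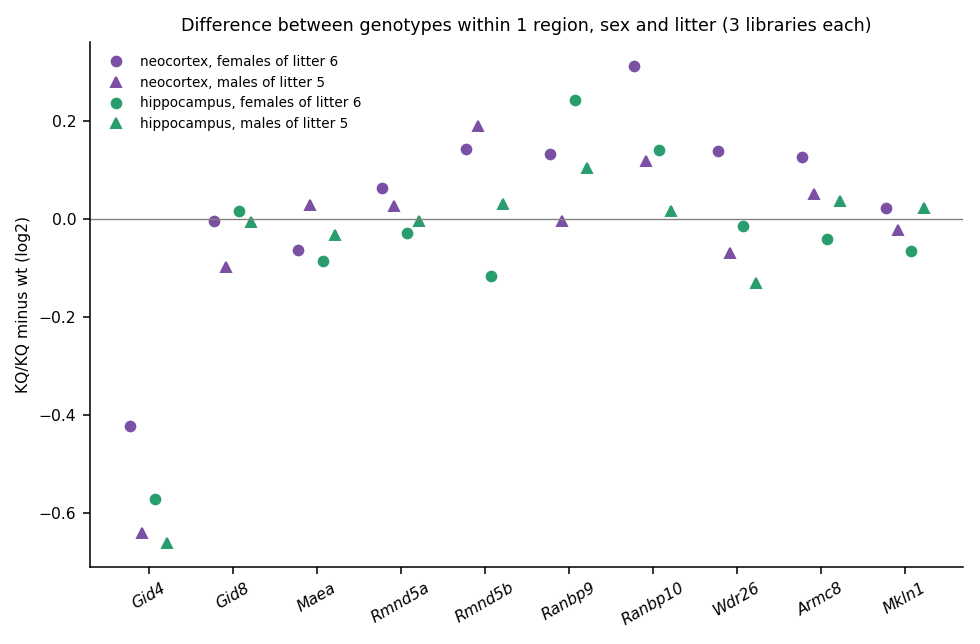
Difference between genotypes (mutants minus controls, log2, vertical axis) within 1 region, sex and litter for each subunit, purple for neocortex, green for hippocampus, circles for females of litter 6 and triangles for males of litter 5, each from 3 libraries. The 4 points of Gid4 lie between -0.66 and -0.42, the 4 of Ranbp10 between 0.017 and 0.31, and those of the other 8 genes fall on both sides of 0.

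The genes around Gid4 were examined for a shared change. Of 20 protein-coding genes that start within 500 kb of the start of Gid4 (RefSeq, GRCm38.p6), all 20 were tested and 0 had an adjusted p under 0.05 by limma in either region, alone or with both regions in 1 model. Their median difference was -0.0036 in neocortex and 0.014 in hippocampus, with ranges of -0.14 to 0.27 and -0.13 to 0.14. The nearest, Atpaf2, which encodes a mitochondrial ATP synthase assembly factor, starts (lowest coordinate) 16.5 kb before Gid4. It spans 60400624 to 60420479 and so overlaps the first part of Gid4. Atpaf2 differed by -0.058 in neocortex and -0.020 in hippocampus. Drg2, a GTPase gene on the other side, starts 37.4 kb after it and differed by -0.038 and -0.080. The 3 with the largest mean size over the regions were Rasd1, a small Ras-like GTPase (0.27 and 0.14), Rai1, a chromatin-associated regulator of transcription (0.23 and 0.083), and Shmt1, the cytosolic serine hydroxymethyltransferase (0.15 and -0.065).

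**Figure D4:**
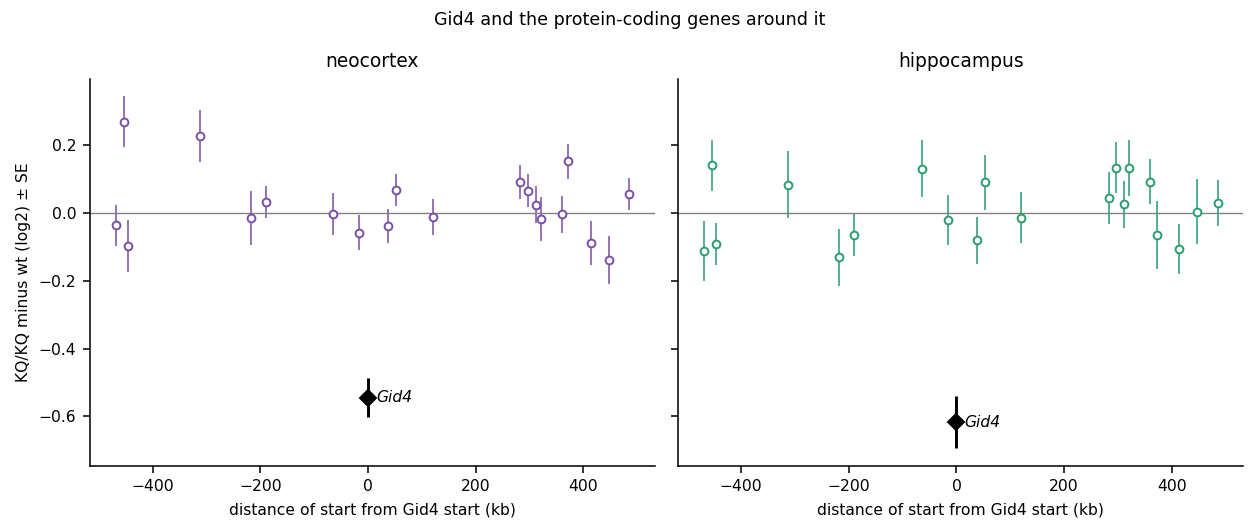
Difference between genotypes (mutants minus controls, log2, vertical axis, bars ± SE) against the distance of each gene's start from the start of Gid4 (kb, horizontal axis) in neocortex and hippocampus, with open circles for the 20 neighbours and a black diamond for Gid4. The neighbours lie between -0.14 and 0.27 and Gid4 at -0.54 and -0.62.

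The genes whose pattern over the 20 libraries was most like that of Gid4 were found by the root mean square difference after each gene was centred on its own mean. Out of 17862 genes the 5 nearest were Spop at 0.081, Ccl28 at 0.13, Lrrc10b at 0.13, Cdc42ep1 at 0.13 and Tmem267 at 0.13. Spop is on chromosome 11 with Gid4, but not among its 20 neighbours, and the others are on chromosomes 13, 19, 15 and 13. The difference of Spop between genotypes, given as a description, was -0.39 for neocortex and -0.50 for hippocampus. Of the other subunits the nearest in this order was Wdr26 at place 5160 with 0.29, and the farthest Ranbp9 at place 14580 with 0.37. Because Gid4 was chosen for its gap between genotypes, any gene without such a gap is far from it in this order. These places are therefore a description and no further test of the subunits.

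Between the regions, the share of subunits past the test was close to that of all genes in each genotype. Within TDP-43 KQ/KQ, 3 of 10 members passed the test of hippocampus against neocortex, all 3 lower in the hippocampus, where 35.4% of all genes passed. The difference was -0.14 ± 0.038 (SE) for Maea, -0.13 ± 0.035 for Rmnd5a and -0.17 ± 0.040 for Rmnd5b (adjusted p = 0.0117, 0.00849 and 0.00425 by limma). Maea was at -0.18, -0.17, -0.14, -0.050 and -0.14 in the hippocampus, against a lowest value of -0.044, a median of 0.0023 and a highest value of 0.031 in the neocortex. The regions did not overlap for Maea, for Rmnd5a (-0.17 to -0.094 against -0.052 to 0.031) or for Rmnd5b (-0.24 to -0.051 against -0.032 to 0.033), and they did not for 27.7% of all genes.

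Within TDP-43 wt, 3 of 10 passed, where 28.2% of all genes did. Rmnd5a (-0.12 ± 0.040 SE, adjusted p = 0.0349 by limma) and Ranbp9 (-0.19 ± 0.051, adjusted p = 0.0114) were lower in the hippocampus, and Wdr26 was higher (0.16 ± 0.053, adjusted p = 0.0317). Wdr26 in TDP-43 wt was at 0.14, 0.090, 0.15 and 0.14 in the hippocampus, against -0.062, -0.078, -0.063, -0.035 and 0.064 in the neocortex. The regions did not overlap for Wdr26, Ranbp9 and Mkln1, as for 32.1% of all genes, although Mkln1 did not pass the test. The TDP-43 wt calls rested on single libraries: without hippocampus TDP-43 wt female 3, 0 of 10 passed (0 to 4 over all omissions), where 3729 of 17863 genes did. Ranbp9 then had an adjusted p of 0.0623 by limma. Maea, Rmnd5a and Rmnd5b were called in TDP-43 KQ/KQ under all 20 omissions of a library. With females only and each mouse as a block, the Rmnd5a call was lost in TDP-43 KQ/KQ (-0.11, adjusted p = 0.155 by limma), and in TDP-43 wt those of Rmnd5a (adjusted p = 0.138) and Wdr26 (adjusted p = 0.0647) were. Members called in 1 genotype and not in the other are not thereby shown to differ, as the difference of the regional effect between genotypes passed for 0 of the 9 subunits other than Gid4 by limma (0% of all genes, lowest adjusted p 0.829, with 1 of 9 at an unadjusted p under 0.05). The test of genotype by sex in the neocortex likewise passed for 0 of these 9 (0% of all genes by limma), with 0 of 9 at an unadjusted p under 0.05, against 2.24% of all genes.

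**Figure D5:**
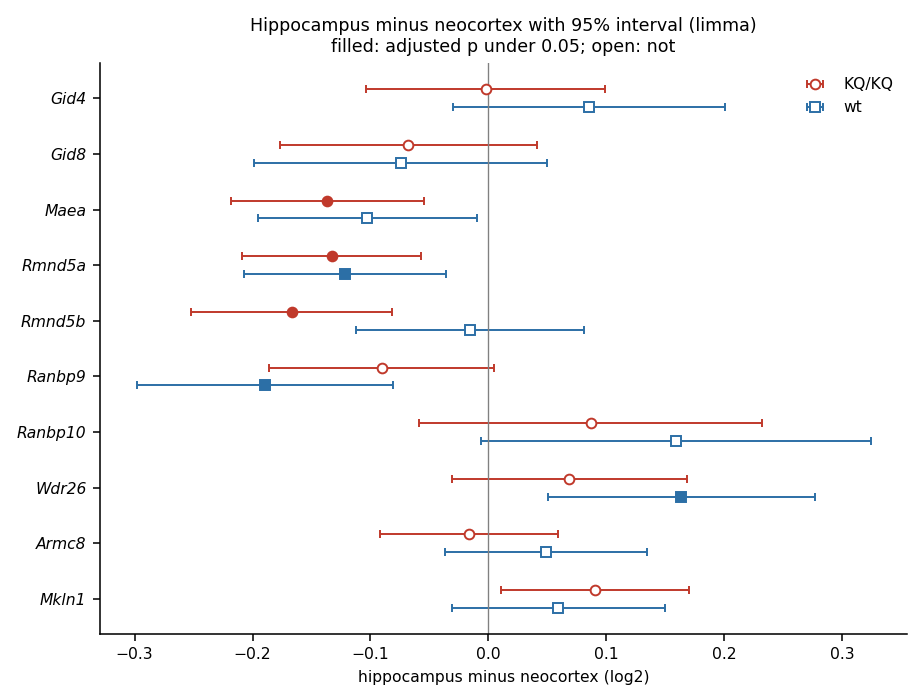
Difference between regions (hippocampus minus neocortex, log2, horizontal axis) with its 95% interval for each subunit, circles for TDP-43 KQ/KQ and squares for TDP-43 wt, filled where the adjusted p was under 0.05. Maea, Rmnd5a and Rmnd5b are filled on the lower side in TDP-43 KQ/KQ, and Rmnd5a, Ranbp9 and Wdr26 are filled in TDP-43 wt.

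The ligase acts with the E2 enzyme UBE2H, and YPEL5 binds WDR26 in the complex. Neither passed between genotypes: Ypel5 differed by -0.098 ± 0.060 (SE) in neocortex and -0.14 ± 0.085 in hippocampus (adjusted p = 0.476 and 0.517 by limma), and Ube2h by 0.0046 ± 0.047 and -0.024 ± 0.064. Of 9 genes whose proteins have been named as substrates or partners of the mammalian complex, 0 passed in either region alone, with medians of -0.0050 in neocortex and 0.0013 in hippocampus. In the model of both regions 1 of these 9 passed in the hippocampus and 0 in the neocortex, where 0.386% and 0.224% of all genes did. This was Arhgap11a, which was lower in the mutants there (-0.23 ± 0.040 SE, adjusted p = 0.0222 by limma) and at -0.18 ± 0.037 in the neocortex (adjusted p = 0.0508). The hippocampal call was lost without TDP-43 wt male 1 (adjusted p = 0.157), TDP-43 KQ/KQ female 1 (adjusted p = 0.0876) or TDP-43 KQ/KQ male 2 (adjusted p = 0.0509). These are transcript values, and no protein was measured.

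Of 6 orthologues of the enzymes that the yeast complex degrades, 0 passed between genotypes in either region by limma. Pck1, a gluconeogenic enzyme, differed by 0.046 ± 0.088 (SE) in neocortex and -0.70 ± 0.20 in hippocampus (adjusted p = 0.827 and 0.288), and by 0.13 ± 0.44 and 0.017 ± 0.47 with both regions in 1 model. Fbp1, fructose-bisphosphatase, differed by 0.055 ± 0.056 and -0.37 ± 0.13, and by 0.086 ± 0.27 and 0.085 ± 0.29 with both regions in 1 model. For both genes the value and its error thus differed between the fits. Of 9 tested genes of other N-degron pathways 0 passed by limma, with medians of -0.043 in neocortex and -0.017 in hippocampus, and the largest mean sizes were those of the ubiquitin ligases Ubr2 (0.11 and 0.13) and Ubr4 (0.21 and -0.010).

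The mean levels of some cell type marker lists lay lower in the mutants, as Gid4 did. The mean of 5 oligodendrocyte markers lay between -0.12 and 0.11 in TDP-43 KQ/KQ and between 0.081 and 0.34 in TDP-43 wt neocortex, and between 0.031 and 0.34 against 0.35 and 0.57 in the hippocampus, with 5 of 5 genes lower in the mutants in both regions and 0 of 5 past the test by limma. The mean of 5 microglial markers lay between -0.12 and 0.080 in TDP-43 KQ/KQ and between 0.052 and 0.23 in TDP-43 wt neocortex, and between -0.049 and 0.10 against 0.091 and 0.42 in the hippocampus, again with 5 of 5 lower and 0 of 5 past the test. The mean of 6 neuronal markers lay between -0.044 and 0.051 in TDP-43 KQ/KQ and between 0.064 and 0.13 in TDP-43 wt neocortex, and between -0.43 and -0.29 against -0.29 and -0.18 in the hippocampus, with 3 of 6 genes lower in the mutants in the neocortex, 6 of 6 in the hippocampus and 0 of 6 past the test. The mean of 4 choroid plexus markers ranged from 0.30 to 4.32 in TDP-43 KQ/KQ and from -0.035 to 2.56 in TDP-43 wt hippocampus. In the fits of each region these 4 were all lower in mutant neocortex and all higher in mutant hippocampus. Lower in the mutants were 5 of 5 astrocyte and 4 of 4 endothelial genes in neocortex, against 3 of 5 and 2 of 4 in hippocampus. All 5 blood genes were lower in both regions, and 2 of 3 oligodendrocyte precursor genes were higher in both. None of these genes passed by limma. The part of these cell types in the Gid4 and regional values was not tested.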

How the data were processed

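The submitters' processing notes name cutadapt, STAR 2.5.2b, Salmon, DESeq2 1.34.0, R 4.1.0, limma and the mm10 build. The authors deposited log2-like values: expression after the variance-stabilizing transformation of DESeq2, from which sex and litter had been taken out by limma. Of 24528 genes, 4383 were at 0 in every library (within 1e-06). The table holds neither counts nor depth, so precision comes only from the spread between libraries, and paralogues may share reads.

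Region, genotype, sex and litter came from the sample labels. With limma 3.58.1 in R 4.3.3 (statmod 1.5.0), genotype, sex and litter were fitted in each region (4 residual degrees of freedom for neocortex, 3 for hippocampus) and in 1 model of both regions (11), which takes the regions as independent although the 6 females may be the same mice. Genotype by sex was tested in the neocortex (3). Sex and litter were fitted again because their removal had used degrees of freedom. P was adjusted after Benjamini and Hochberg over all genes kept: 18329 for neocortex, 18310 for hippocampus and 17863 for both. Genes at 0 throughout were dropped, as were those with identical values in the 3 libraries of any 1 sex and litter. Tables and figures used Python 3.11.15, pandas 2.3.3, scipy 1.17.1 and matplotlib 3.10.9. The fits were tested on simulated data of 17863 genes: of 100 genes changed by 0.5 the neocortex fit called 83 and the hippocampus fit 51. Of the unchanged genes there, 4.97% and 4.87% had an unadjusted p under 0.05 by limma. In the deposited data 13.7% and 12.1% of all genes did, so these counts do not carry over to them. The share of real changes that the fits call in the deposited data was not tested, nor were changes smaller than 0.5.

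The members, gene lists and comparisons were chosen with earlier results of these data known. Named were all 10 members, list genes past the threshold or otherwise the 2 with the largest mean change, and 3 neighbours of Gid4; Atpaf2 and Drg2 were added as the nearest. Ntaq1, a list gene under an older symbol in the table, was not matched. Alternatives were no filter, a stricter filter, centring on library medians, robust eBayes, genotype alone, sex without litter, litter as a random effect, replicate blocks, and omission of each library. A fit of females alone with each mouse as a term was chosen after seeing the data.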

Additional observations from a re-analysis of the deposited data

Results flagged for a closer look

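Among the 10 subunits in the 4 groups of region and genotype, 40 sets of 4 to 6 libraries were examined for a library far from the rest of its group, and 4 had one, where chance gives about 1 in 20. For Gid4, hippocampus TDP-43 KQ/KQ male 2 was at -0.10 and the other 4 libraries between 0.017 and 0.031, so it lay on the side away from the controls. For Rmnd5b, hippocampus TDP-43 wt female 1 was at -0.10 and the other 3 between -0.152 and -0.145. For Ranbp9, hippocampus TDP-43 KQ/KQ male 1 was at -0.22 and the other 4 between -0.073 and -0.026, the mutant library nearest to the controls. For Wdr26, hippocampus TDP-43 wt female 2 was at 0.090 and the other 3 between 0.14 and 0.15. All 4 were in the hippocampus, which has the smaller groups.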

How the results depend on the processing

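The Gid4 difference between genotypes was negative under every alternative run: -0.61 to -0.46 for neocortex and -0.66 to -0.57 for hippocampus over the omission of each library in turn and the other settings. The ends of the hippocampal range are the 2 comparisons within 1 sex and litter given above. Some of the omissions change nothing in the fit of a region alone, as stated above.

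The count of other subunits past the threshold was 0 of 9 in the hippocampus alone under all 17 alternatives. In the neocortex alone it was 1 (Rmnd5b) with genotype alone, with sex without litter and with litter as a random effect. With both regions in 1 model it was 2 (Rmnd5b and Armc8) in the neocortex with genotype alone and with litter as a random effect, and 1 (Rmnd5b) with sex without litter. In the hippocampus it was 1 (Ranbp9) with each of these 3 settings. These settings treat as free the degrees of freedom that the authors' removal of sex and litter had used. The counts over all genes in the same settings are given at the end of this section. With the omission of each library these counts were 0 throughout.

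The replicate numbers gave no sign of pairing the genotypes. Same-numbered libraries had correlations of their deviations from -0.60 to 0.12 and often came from different litters, and each of the 9 was exceeded by another pairing. Sex and litter effects had already been removed, so this check could not show a pairing by litter. The female libraries that may be the same mice also ran from -1 to 0.72 between the regions. With the number within sex as a replicate block in place of sex and litter, 2 subunits (Rmnd5b and Ranbp10) passed in the neocortex, where 1856 of 18329 genes did. The block of each female mouse as a random effect gave a correlation of 0.274.

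Of the regional comparisons, 5 of 10 members passed in TDP-43 KQ/KQ with genotype alone and with litter as a random effect, where 8454 and 8253 of 17863 genes did. In TDP-43 wt 5 of 10 passed with genotype alone, where 7562 genes did. With females only and each mouse as a block, 2 passed in TDP-43 KQ/KQ (Maea and Rmnd5b) and 1 in TDP-43 wt (Ranbp9), where 4566 and 4665 of 17863 genes did. Over the omission of each library the count ran from 3 to 4 in TDP-43 KQ/KQ and from 0 to 4 in TDP-43 wt, where it was 1 (Ranbp9) without neocortex TDP-43 wt female 2 or 3, hippocampus TDP-43 wt female 1 or hippocampus TDP-43 wt male 1. Over all genes it ran from 4978 to 6539 and from 3653 to 5882. The cause was not tested.

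Over all genes, 7 were called for neocortex alone and 0 for hippocampus alone. These counts were 2745 and 373 with genotype alone, 1939 and 147 with sex without litter, 2423 and 150 with litter as a random effect, 12 and 0 with robust eBayes, 0 and 0 without the filter, and 1856 and 0 with the number block. In the model of both regions 40 and 69 were called, against 2381 and 2077, 1812 and 1584, and 2396 and 2114 under the first 3 of these settings, and 66 and 70 with the stricter filter. Over the omission of each library the counts ran from 0 to 9 for neocortex and 0 to 128 for hippocampus alone, and from 7 to 123 and 8 to 137 in the model of both regions.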
